A study of Mus musculus with 48 samples.

Results

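In all, 10 genes of brown fat thermogenesis were followed in the thoracic aorta of 48 mice as a measure of the brown fat that lies around the vessel. They were Ucp1, Cidea, Elovl3, Dio2, Ppargc1a, Cpt1b, Cox8b, Prdm16, Adrb3 and Kcnk3, chosen by name as 10 of the 18782 genes in the table, and all 10 had at least 1 count in every library. Counts of 3 or fewer, taken as near detection, occurred for Elovl3 alone, with 2 in MaCon9 and 1 in MaAAD3. The mice were wild-type C57BL/6J, 3 weeks old at the start, and were followed for 28 days. Male (MaCon, 10) and female (FeCon, 10) controls drank plain water. The other mice drank water with 0.4% BAPN, an inhibitor of lysyl oxidase, which joins collagen and elastin fibres in the vessel wall, and were split at day 28 by what the aorta looked like. Those with dissection or aneurysm formed MaAAD (7) and FeAAD (9), and those without formed MaNonAD (4) and FeNonAD (8). Only mice alive at day 28 were sampled, so mice that died of rupture are not represented. After perfusion with saline the ascending aorta, arch and proximal descending aorta were taken out. The study's methods describe the RNA as that of lesioned segments of this vessel, and say neither which segments stood for mice with no lesion nor whether the fat around the vessel was removed or kept.

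Brown adipocytes burn fatty acids in their mitochondria and release the energy as heat. Noradrenaline from sympathetic nerves acts on the β3-adrenergic receptor (Adrb3), raises cyclic AMP, frees fatty acids and induces Ucp1, the uncoupling protein that lets protons back across the inner mitochondrial membrane without making ATP. Fat around the thoracic aorta of rodents is largely of the brown type. Of the other members, Ppargc1a is a coactivator of mitochondrial biogenesis, Prdm16 a transcriptional regulator of brown adipocyte identity, and Dio2 the deiodinase that makes active thyroid hormone. Cpt1b carries fatty acids into mitochondria, Cox8b is a subunit of cytochrome c oxidase, Elovl3 elongates fatty acids, Cidea acts on lipid droplets, and Kcnk3 is a potassium channel.

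Cyclic AMP acts in part through factors that bind TGACGTCA or its core TGACG, so the promoters of members were searched for these letters on both strands. RefSeq windows of 300 bases around the start site, on GRCm38.p6, were at hand for 5 members that could be used (Ucp1, Ppargc1a, Dio2, Cox8b and Prdm16). TGACG was found in 3 of them and in 20.8% of all 32851 windows. TGACGTCA, which holds TGACG on either strand, was found in 1 of them, Dio2, and in 1.79% of all windows. AAGGTCA, bound by oestrogen-related receptors, was found in none of the 5 and in 4.72% of all windows. The PPAR response element and the EBF palindrome were also found in none of the 5, and in 0.0396% and 0.904% of all windows. The lines show a window with the core (Ucp1, chr8:83290098-83290397, plus strand), the coactivator (Ppargc1a, chr5:51567676-51567975, minus strand), the window with the full motif (Dio2, chr12:90738989-90739288, minus strand), and 1 window with neither (Cox8b, chr7:140900397-140900696, minus strand). Each is written 5′ to 3′ on the strand of the gene, with the motif letters in capitals.
Ucp1: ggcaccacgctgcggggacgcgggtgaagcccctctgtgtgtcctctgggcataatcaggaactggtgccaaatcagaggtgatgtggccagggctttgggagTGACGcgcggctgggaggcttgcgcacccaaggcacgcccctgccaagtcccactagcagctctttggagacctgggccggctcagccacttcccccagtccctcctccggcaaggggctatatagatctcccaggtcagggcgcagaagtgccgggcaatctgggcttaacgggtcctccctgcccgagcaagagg
Ppargc1a: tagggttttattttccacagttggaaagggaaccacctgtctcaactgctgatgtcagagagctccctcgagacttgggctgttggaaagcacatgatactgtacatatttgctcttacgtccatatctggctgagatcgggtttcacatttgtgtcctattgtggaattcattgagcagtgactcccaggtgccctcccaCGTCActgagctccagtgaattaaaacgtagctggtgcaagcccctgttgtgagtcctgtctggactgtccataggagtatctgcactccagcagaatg
Dio2: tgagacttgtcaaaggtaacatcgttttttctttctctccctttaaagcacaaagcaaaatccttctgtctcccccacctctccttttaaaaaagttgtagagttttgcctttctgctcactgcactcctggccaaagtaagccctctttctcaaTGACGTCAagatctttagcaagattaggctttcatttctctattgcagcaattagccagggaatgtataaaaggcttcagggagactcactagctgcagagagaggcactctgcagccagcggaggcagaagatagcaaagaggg
Cox8b: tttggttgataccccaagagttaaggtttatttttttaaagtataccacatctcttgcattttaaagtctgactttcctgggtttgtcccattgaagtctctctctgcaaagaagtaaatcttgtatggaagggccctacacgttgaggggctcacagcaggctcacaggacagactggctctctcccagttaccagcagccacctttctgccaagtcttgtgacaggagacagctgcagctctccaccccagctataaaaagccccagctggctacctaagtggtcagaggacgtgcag
A match describes letters only. Whether these motifs bear on the levels was not tested, and sequence outside the 300 bases was not searched.

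Library totals ranged from 13548015 to 17281268 counts, with a median of 15681338. Levels are given as CPM (counts scaled to library size) after TMM normalization, whose factors ran from 0.873 to 1.08. One male library with a lesion, MaAAD1, stood apart in the genes described here and is named before the results because it decides several of them. It had the highest level of Ucp1, Cidea, Cpt1b, Cox8b and Kcnk3 among all 48 libraries. Heart muscle RNA was also present in some libraries, with Myh6, the heart's myosin heavy chain, at 65.8 CPM in MaCon6, 142 CPM in MaAAD7 and 224 CPM in FeCon10. No pair of libraries held identical values.

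Ucp1 was present in every aorta, and its level differed far more between mice of 1 group than between groups. In MaCon it was 628, 1131, 161, 728, 371, 493, 263, 499, 86.5 and 265 CPM in MaCon1 to MaCon10. In MaNonAD it was 409, 1173, 652 and 608 CPM in MaNonAD1 to MaNonAD4. Those 4 libraries lay within the range of the male controls but for MaNonAD2, which was just above it. In MaAAD it was 1364, 158, 10.9, 118, 205, 138 and 44.6 CPM in MaAAD1 to MaAAD7. That group thus held both the highest and the lowest library of the series, 125-fold apart, and 6 of its 7 libraries were below every MaNonAD library.

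Among females Ucp1 was 211, 483, 537, 220, 521, 389, 236, 1040, 200 and 168 CPM in FeCon1 to FeCon10. It was 919, 346, 736, 219, 867, 585, 335 and 89.0 CPM in FeNonAD1 to FeNonAD8. The FeNonAD group spanned almost the whole range of the controls and went below it in FeNonAD8. In FeAAD1 to FeAAD9 it was 153, 352, 229, 678, 123, 244, 94.7, 902 and 66.9 CPM. The 3 female groups overlapped throughout, with medians of 313 CPM in FeCon, 465 CPM in FeNonAD and 229 CPM in FeAAD, and the male medians were 432 CPM in MaCon, 630 CPM in MaNonAD and 138 CPM in MaAAD.

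**Figure D1:**
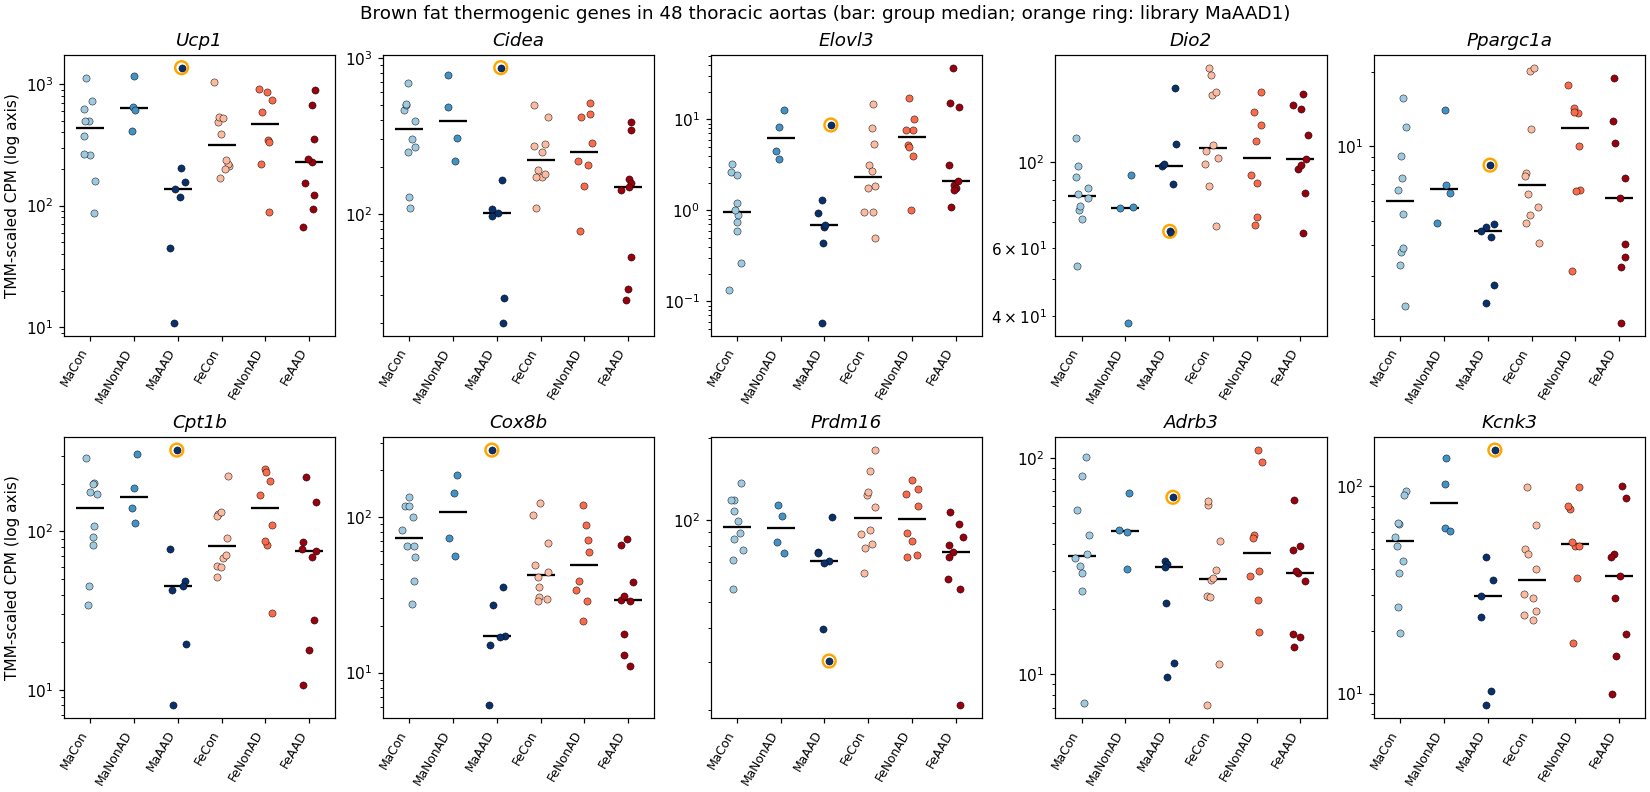
TMM-scaled CPM of each gene (log axis) in each of the 48 libraries, by group. Bars are group medians and the orange ring marks MaAAD1, whose 1364 CPM of Ucp1 compares with 10.9 to 205 CPM in the other 6 MaAAD libraries.

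The wide spread was a property of most members. The standard deviation within groups on the log2 scale was 1.26 for Ucp1, which lay at the 99.8th percentile of the 14431 tested genes, against 0.276 for the median gene. Cidea and Cpt1b lay at the 99.7th percentile, Elovl3 at the 99.5th, Cox8b at the 99.3rd, Adrb3 and Kcnk3 at the 99.0th and Ppargc1a at the 97.5th. Prdm16, at the 89.0th, and Dio2, at the 80.3rd, were less variable. Group explained 24.4% of the variance of Ucp1 and 26.0% of that of the median gene.

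Per kilobase of transcript, the members spanned a wide range of levels. Ucp1 was at 260 ± 203 CPM per kb (SD, n = 48), Cidea at 245 ± 176 and Cox8b at 172 ± 140, and their spreads over mice overlapped. All members come from the same libraries, and levels per kb were not compared within libraries. Cpt1b followed at 40.5 ± 28.2 CPM per kb. Dio2 at 17.4 ± 5.43, Kcnk3 at 13.8 ± 8.60, Adrb3 at 13.5 ± 8.53 and Prdm16 at 10.6 ± 3.55 CPM per kb overlapped each other. Elovl3 at 2.55 ± 3.46 and Ppargc1a at 1.23 ± 0.771 CPM per kb were the lowest. Adipoq, the adipocyte hormone, was detected in every group, with medians of 105 to 212 CPM, so fat RNA was in the tissue of all groups.

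Of the 10 genes, 7 rose and fell together from mouse to mouse. After each group's mean was removed, the 21 pairs among Ucp1, Cidea, Cpt1b, Cox8b, Kcnk3, Ppargc1a and Elovl3 had Pearson's r between 0.715 and 0.975 over 48 libraries, which share their library and its depth within each pair. Adrb3 followed less closely, with r from 0.239 to 0.547 to those 7. Dio2 and Prdm16 stood outside, with r from -0.15 to 0.265 to any other member.

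**Figure D2:**
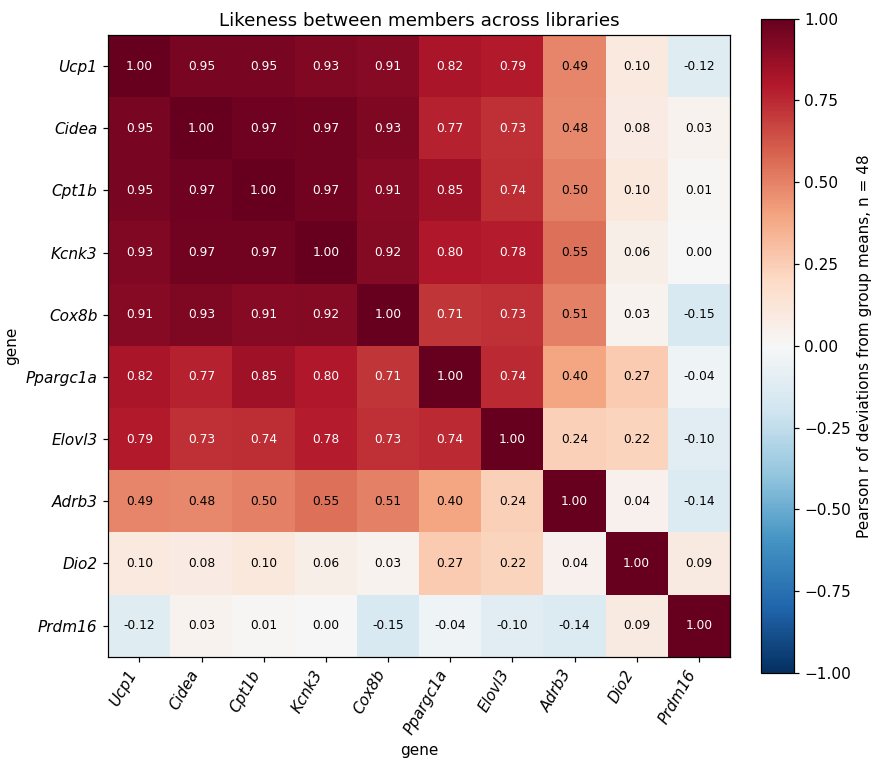
Pearson's r between members over 48 libraries, on deviations of log2(CPM + 1) from group means. The upper left block of 7 genes lies between 0.715 and 0.975, and the rows of Dio2 and Prdm16 lie between -0.15 and 0.265.

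The same relations to Ucp1 were tested with 100000 permutations within groups and adjusted over the 9 members. For Cpt1b, r was 0.947 and Spearman's rho 0.957. For Cidea they were 0.946 and 0.944, for Kcnk3 0.928 and 0.919, for Cox8b 0.907 and 0.907, for Ppargc1a 0.82 and 0.873, and for Elovl3 0.794 and 0.776. Each of these had a permutation p of 1e-05, the smallest that these permutations can give, and an adjusted p of 1.5e-05. Adrb3 had r of 0.49 (adjusted permutation p = 0.00116) and rho of 0.496 (adjusted permutation p = 0.00135). The relation of Adrb3 differed between groups, from 0.936 in MaAAD to -0.102 in FeAAD, and this difference was not tested. For Dio2 r was 0.0962 (adjusted permutation p = 0.541) and rho 0.181 (adjusted permutation p = 0.266), and for Prdm16 r was -0.123 (adjusted permutation p = 0.541) and rho -0.105 (adjusted permutation p = 0.502). Leaving out the pair of libraries whose deviation of Ucp1 was farthest from the median, MaAAD1 and MaAAD3, gave r from 0.792 to 0.932 for Cpt1b, Cidea, Kcnk3, Cox8b, Ppargc1a and Elovl3. It gave 0.39 for Adrb3, 0.237 for Dio2 and 0.0649 for Prdm16. Within single groups, r to Ucp1 was 0.87 to 0.994 for Cpt1b, 0.897 to 0.991 for Cidea, 0.865 to 0.96 for Kcnk3, 0.866 to 0.935 for Cox8b, 0.664 to 0.978 for Ppargc1a and 0.686 to 0.919 for Elovl3. It varied in sign for Dio2, from -0.362 in MaAAD to 0.876 in MaNonAD, and for Prdm16, from -0.749 in MaNonAD to 0.406 in FeNonAD.

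**Figure D3:**
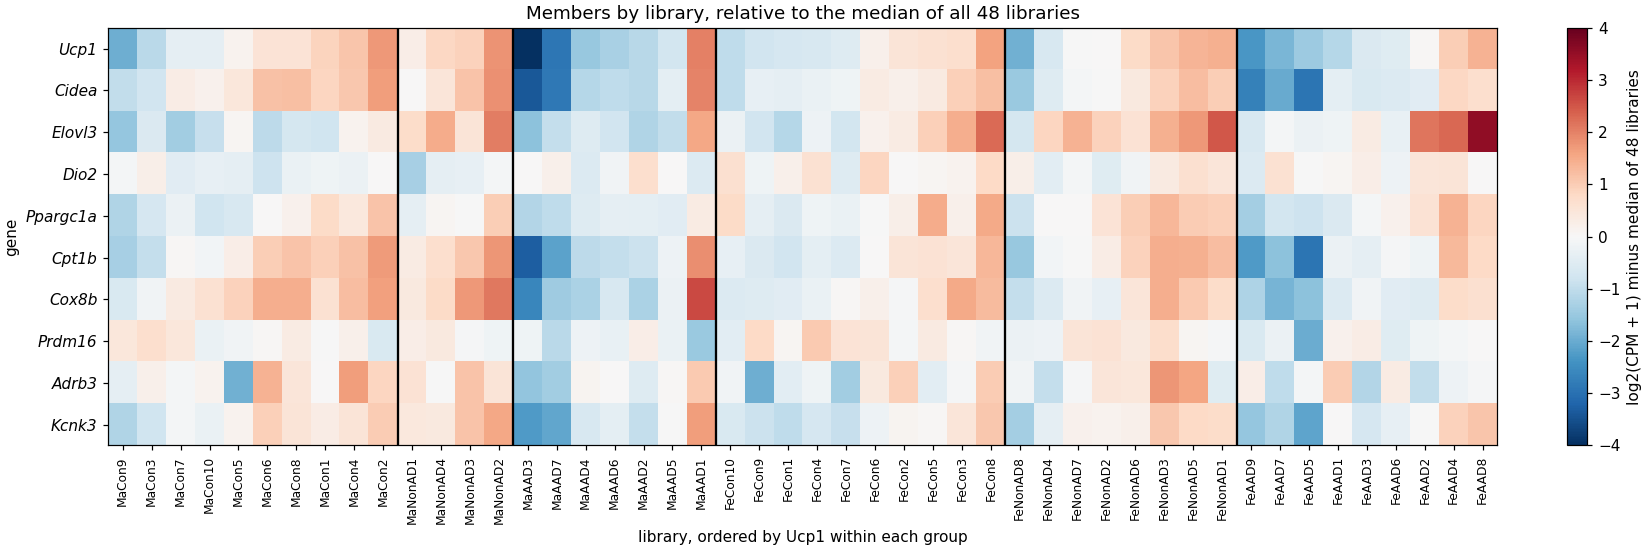
log2(CPM + 1) of each gene minus its median over 48 libraries, with libraries ordered by Ucp1 within each group. Columns turn from blue to red together in the rows of Ucp1, Cidea, Cpt1b, Cox8b and Kcnk3, whose r to Ucp1 was 0.907 to 0.947, and not in those of Dio2 and Prdm16.

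Ranked over all 14430 other tested genes by r to Ucp1, the 10 highest included Acadm (0.956), Plin5 (0.952), Otop1 (0.95), Cpt1b, Cidea, Hadhb (0.945), Acaa2 (0.944), Acadl (0.942) and Acadvl (0.942). Acadm, Acadl, Acadvl, Hadhb and Acaa2 are enzymes of mitochondrial fatty acid oxidation, and Plin5 is a lipid droplet protein of oxidative tissues. Kcnk3 ranked 17, Cox8b 50, Ppargc1a 223, Elovl3 285 and Adrb3 1095. The 100 highest held 14 of 16 listed genes of fatty acid oxidation and 8 of 21 other genes of brown fat. They also held 3 of 15 adipocyte genes, 2 of 13 genes of adrenergic lipolysis and 1 of 8 beige fat genes. They held 0 of 19 heart muscle, 0 of 11 skeletal muscle, 0 of 10 smooth muscle, 0 of 12 leukocyte and 0 of 10 white fat genes. With 100 of 14430 genes taken, lists this short would mostly hold 0 at random, so these zeros do not set the lists apart. Cpt1b and Cox8b are also expressed in heart and skeletal muscle. The mean of the heart muscle list had r of -0.0201 to Cpt1b and -0.0513 to Cox8b, and that of skeletal muscle -0.108 and -0.131. To Ucp1 the mean of the heart muscle list had r of -0.0727. That of the adipocyte list had 0.901, of adrenergic lipolysis 0.914 and of white fat 0.495. At the other end, Txndc5 (-0.816), Colgalt1 (-0.76), Cttn (-0.759), Fkbp10 (-0.753) and Tm9sf1 (-0.745) were least like Ucp1, and Colgalt1 and Fkbp10 act on collagen in the endoplasmic reticulum.

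The first question was whether these genes differed after BAPN with a lesion in males. In MaAAD against MaCon 0 of the 10 were called, at an adjusted p under 0.05 and a log2 fold change of at least 1 in size, where 11.4% of all tested genes were called. By unadjusted p under 0.05 there was 1, Prdm16, where 43.6% of all tested genes were under 0.05, and DESeq2 also called 0. The log2 fold change was -0.67 for Ucp1 (SE 0.59, adjusted p = 0.399, edgeR), -0.87 for Cidea (SE 0.53, adjusted p = 0.204) and 0.47 for Elovl3 (SE 0.74, adjusted p = 0.655). The median over members was -0.57, against -0.03 over all tested genes. In a bulk sample fewer brown adipocytes and less RNA per adipocyte cannot be told apart.

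MaAAD1 decided this comparison. Its level of Cidea was 864 CPM against 20.0 to 166 CPM in the other 6 MaAAD libraries, that of Cox8b 269 against 6.17 to 35.6 CPM, that of Cpt1b 325 against 8.03 to 77.0 CPM, and that of Kcnk3 150 against 8.79 to 45.8 CPM. Prdm16 went the other way, at 30.3 CPM in MaAAD1 and 39.8 to 103 CPM in the others. Across the whole adipocyte list of 15 genes MaAAD1 had a summed level of 20260 CPM, the highest of all groups, and across the 10 smooth muscle genes 13450 CPM, the lowest. The part of these marker levels in the result was not tested.

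With that library left out of the fit, 5 of the 10 members were called, all lower in MaAAD than in MaCon, where 2.89% of all tested genes were called lower. The log2 fold change was then -2.02 for Ucp1 (SE 0.57, adjusted p = 0.00463, edgeR), -2.03 for Cidea (SE 0.50, adjusted p = 0.00126) and -2.01 for Cox8b (SE 0.44, adjusted p = 0.000299). Cpt1b had -1.78 (SE 0.51, adjusted p = 0.00527, edgeR) and Kcnk3 -1.10 (SE 0.42, adjusted p = 0.035, edgeR). Ppargc1a at -0.81, Adrb3 at -0.93, Prdm16 at -0.39 and Dio2 at 0.32 did not pass. Elovl3 turned from 0.47 to -0.93 (adjusted p = 0.37, edgeR). No label sets MaAAD1 apart, so the fit with it stands as the result, and the fit without it was chosen after the values were seen.

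**Figure D4:**
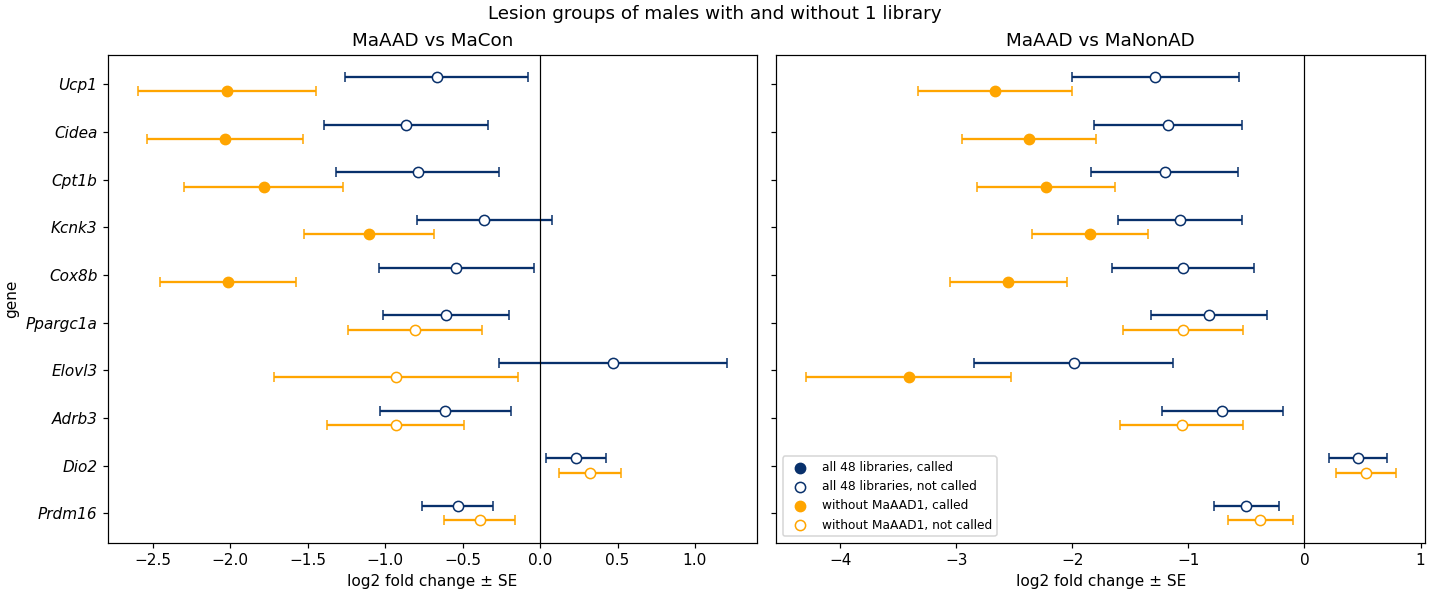
log2 fold changes with standard errors from edgeR for MaAAD against MaCon (left) and against MaNonAD (right), with all 48 libraries (blue) and without MaAAD1 (orange). Filled points are called; 0 are filled with all libraries, and 5 on the left and 6 on the right are filled without MaAAD1.

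Against MaNonAD, the males that drank BAPN without a lesion, 0 of 10 members were called in MaAAD, where 0.353% of all tested genes were, and 1 had an unadjusted p under 0.05, against 18.7% of all. Of the 10, 9 had fold changes below 0, with a median of -1.06 against 0.00 over all tested genes. Ucp1 was at -1.29 (SE 0.72, adjusted p = 0.34, edgeR) and Elovl3 at -1.99 (SE 0.86, adjusted p = 0.189, edgeR). Without MaAAD1, 6 members were called lower where 1.5% of all tested genes were. These were Elovl3 (-3.41), Ucp1 (-2.67), Cox8b (-2.55), Cidea (-2.38), Cpt1b (-2.23) and Kcnk3 (-1.85), with adjusted p between 0.0105 and 0.0185 by edgeR.

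MaNonAD and MaCon differed in no member by the same rule, where 0.478% of all tested genes were called, and 1 member, Elovl3, had an unadjusted p under 0.05, against 12% of all. Elovl3 was at 4.49, 12.7, 3.68 and 8.15 CPM in MaNonAD1 to MaNonAD4. In MaCon it ran from 0.133 to 3.21 CPM with a median of 0.95 CPM. The groups did not overlap, as was so, with higher values in MaNonAD, for 0.61% of all tested genes. The log2 fold change was 2.46 (SE 0.79, adjusted p = 0.154, edgeR), and in a fit of these groups alone 2.47 (adjusted p = 0.0307, edgeR), which is past the threshold, as for 1.02% of the genes tested there. Ucp1 at 0.62 (SE 0.68) and Cidea at 0.31 (SE 0.61) were within 1 SE of 0, and Kcnk3 at 0.71 (SE 0.50) was not called.

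In females the lesion group overlapped the controls for all 10 members. Of these 0 were called in FeAAD against FeCon, where 12.7% of all tested genes were, and 1, Prdm16, had an unadjusted p under 0.05, against 50.7% of all. The log2 fold change was -0.34 for Ucp1 (SE 0.54, adjusted p = 0.64, edgeR), -0.65 for Cidea (SE 0.48, adjusted p = 0.288) and -0.69 for Cox8b (SE 0.47, adjusted p = 0.234). Elovl3 was at 1.10 (SE 0.63, adjusted p = 0.157, edgeR), and without FeCon8, the female control with the highest Ucp1 and Elovl3, it was called at 1.61 (adjusted p = 0.0395, edgeR), where 9.87% of all tested genes were called higher. Without FeAAD8 it was at 0.34 (adjusted p = 0.685, edgeR). Elovl3 ran from 1.09 to 37.0 CPM in FeAAD with a median of 2.12 CPM, and from 0.498 to 14.8 CPM in FeCon with a median of 2.30 CPM, so the medians did not follow the fold change. FeAAD8, at 37.0 CPM, was the highest library of the series.

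FeNonAD against FeCon also gave 0 of 10, where 2.75% of all tested genes were called, and 0 had an unadjusted p under 0.05, against 28.9% of all. Ucp1 was at 0.35 (SE 0.56), Elovl3 at 0.85 (SE 0.65) and Adrb3 at 0.62 (SE 0.40). FeAAD against FeNonAD gave 0 of 10, where 7.04% were called, and 1, Prdm16, had an unadjusted p under 0.05, against 32.1% of all. Ucp1 was at -0.70 (SE 0.57), Cidea at -0.82 (SE 0.51) and Cpt1b at -0.84 (SE 0.51).

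Prdm16 had fold changes below 0 in both lesion groups, of which that in females alone passed the adjusted p and neither the fold threshold. It ran from 55.6 to 136 CPM in MaCon (median 94.3) and from 30.3 to 103 CPM in MaAAD (median 70.6), and the log2 fold change was -0.53 (SE 0.23, adjusted p = 0.0658, edgeR). In females it ran from 63.7 to 180 CPM in FeCon (median 102) and from 20.9 to 107 CPM in FeAAD (median 76.2), with -0.59 (SE 0.21, adjusted p = 0.0217, edgeR), so that the adjusted p alone was passed, as it was for 44.4% of all tested genes. In a fit of FeAAD and FeCon alone the adjusted p was 0.0587. Prdm16 is also expressed outside fat. It had r of 0.66 to the smooth muscle list and -0.638 to the leukocyte list over 48 libraries, against -0.0661 to the other genes of brown fat. Of the 10 smooth muscle genes, 7 were called lower in MaAAD and 6 in FeAAD, and their summed level was 31530 to 69350 CPM in MaCon, 13450 to 32480 CPM in MaAAD, 34400 to 59850 CPM in FeCon and 15450 to 35480 CPM in FeAAD. Of the 12 leukocyte genes, 11 were called higher in each lesion group. Of all 14431 tested genes, 313 were called lower and 1325 higher in MaAAD against MaCon, and 401 lower and 1434 higher in FeAAD against FeCon. No defining gene of either list was at 0 in any group, and the part of these cells in the levels of Prdm16 was not tested.

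Between the sexes 0 of 10 members were called in controls, where 1.51% of all tested genes were, with 2 at an unadjusted p under 0.05, against 29.1% of all. Dio2 ran from 54.1 to 116 CPM in MaCon and from 68.4 to 176 CPM in FeCon, with medians of 81.9 and 109 CPM. Its log2 fold change in males against females was -0.55 (SE 0.18, adjusted p = 0.0287, edgeR), under the fold threshold, and the adjusted p alone was passed by 14.3% of all tested genes. Elovl3 was at -1.61 (SE 0.67, adjusted p = 0.0954, edgeR) and Ucp1 at 0.21 (SE 0.53, adjusted p = 0.826, edgeR).

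MaNonAD against FeNonAD gave 0 of 10, where 0.0485% of all tested genes were called, and MaAAD against FeAAD 0 of 10, where 0.0693% were. Each had 1 member at an unadjusted p under 0.05, against 6.48% and 2.22% of all tested genes. Without MaAAD1, Elovl3, Ucp1, Ppargc1a and Cpt1b were under 0.05 unadjusted in MaAAD against FeAAD, and 0 members were called. Ucp1 moved there from -0.12 to -1.50 (SE 0.57, unadjusted p = 0.0112, edgeR). For Elovl3 the log2 fold change in MaAAD against FeAAD was -2.24 (SE 0.75, adjusted p = 1.00, edgeR), and without MaAAD1 it was -3.67 (SE 0.82, adjusted p = 0.063, edgeR). As interactions, the response of males minus that of females also gave 0 of 10 for NonAD against Con, AAD against Con and AAD against NonAD, where 0.298%, 0.52% and 0% of all tested genes were called. Unadjusted p under 0.05 was reached by 0, 0 and 1 members, and by 12.1%, 15.4% and 1.03% of all tested genes. Without MaAAD1 still 0 members were called. Ucp1 moved from -0.325 to -1.70 (SE 0.72, adjusted p = 0.173, edgeR) for AAD against Con. For AAD against NonAD it moved from -0.59 to -1.99 (SE 0.82, adjusted p = 0.908, edgeR). Unadjusted p was then under 0.05 for Ucp1, Cidea, Elovl3, Cox8b and Kcnk3 in both, and for Cpt1b in AAD against Con. With all libraries DESeq2 called 0 members in each of these comparisons.

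Because most members moved together between mice, their proportions to each other within a library were also compared, an analysis added after the levels were seen. Elovl3 amounted to 0.24 counts per 100 counts of Ucp1 in the median MaCon library, with 1.09 for MaNonAD and 0.636 for MaAAD. Among females the medians were 0.777 for FeCon, 1.34 for FeNonAD and 1.62 for FeAAD, and neighbouring groups overlapped. Over the 9 other members and 9 comparisons, 0 of 81 ratios to Ucp1 passed an adjusted p under 0.05 in exact two-sided permutation tests, and the lowest adjusted p was 0.066. Against Cidea in place of Ucp1, 8 of 81 passed. Of these, 4 were of Elovl3, in MaNonAD against MaCon, FeAAD against FeCon, MaCon against FeCon and MaAAD against FeAAD, each with an adjusted exact p of 0.0405.

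Of the 8, 2 were of Kcnk3. In MaCon its counts per 100 counts of Cidea ran from 13.3 to 20.6, with a median of 15.9, and in MaAAD from 17.3 to 43.9, with a median of 30.4. In FeCon they ran from 12.4 to 28.0, with a median of 15.8, and in FeAAD from 20.3 to 46.3, with a median of 28.9. The mean difference of the log2 ratio was 0.86 in males and 0.82 in females, each with an adjusted exact permutation p of 0.00877. Against Ucp1 the differences for Kcnk3 were 0.81 (adjusted exact permutation p = 0.182) and 0.41 (adjusted exact permutation p = 0.216). The remaining 2 were of Ppargc1a per Cidea, lower in MaCon than in FeCon and in MaNonAD than in FeNonAD, each with an adjusted exact p of 0.0405. A ratio shows that its genes changed unequally, not which of them changed.

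**Figure D5:**
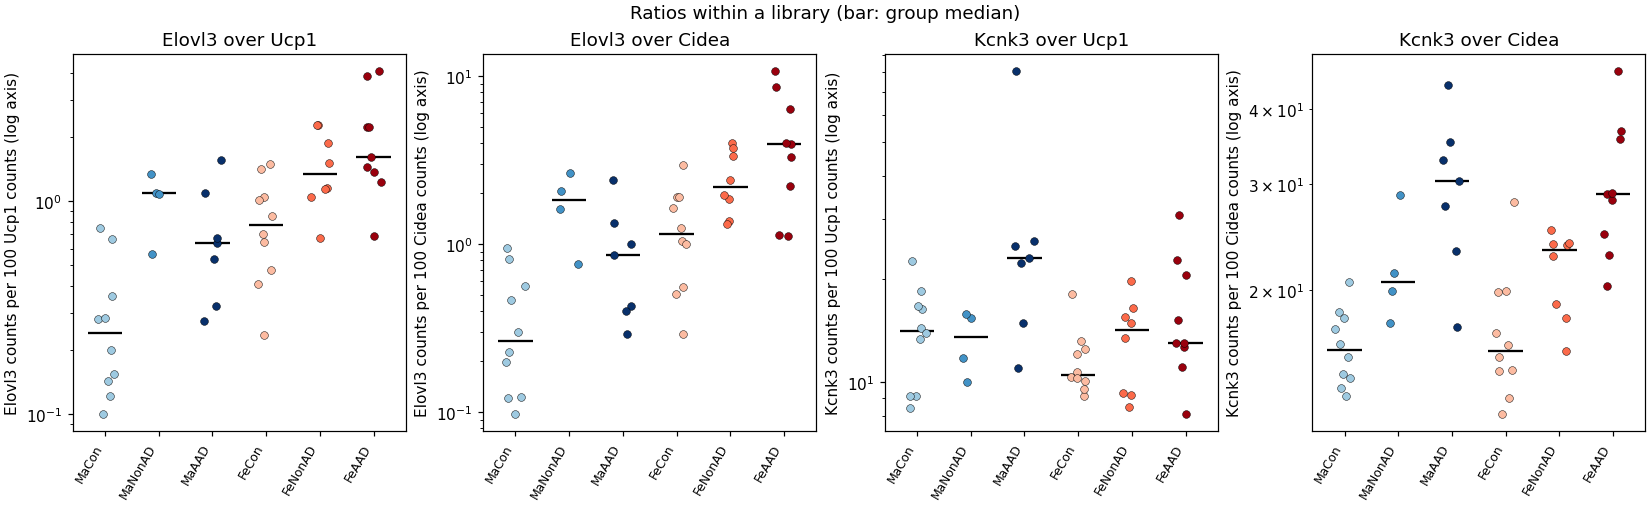
Counts of Elovl3 or Kcnk3 per 100 counts of Ucp1 or Cidea in each library (log axis), by group, with bars at group medians. Kcnk3 per Cidea has medians of 15.9 in MaCon and 30.4 in MaAAD, and of 15.8 in FeCon and 28.9 in FeAAD, with overlap between groups.

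Of 14 tested relatives (paralogues) of the members, 2 were called in MaAAD against MaCon (14.3%, against 11.4% of all tested genes). In FeAAD 1 was called against FeCon (7.14%, against 12.7%) and 1 against FeNonAD (7.14%, against 7.04%). None of these shares stood far above that of all tested genes. Ucp2, an uncoupling protein expressed in many cells including leukocytes, ran from 35.8 to 86.7 CPM in MaCon and from 82.6 to 307 CPM in MaAAD. The log2 fold change was 1.55 (adjusted p = 3.55e-06 by edgeR, SE 0.25), and in FeAAD against FeNonAD it was 1.32 (adjusted p = 0.000252 by edgeR, SE 0.26). In FeAAD against FeCon it was 0.81 (adjusted p = 0.00482 by edgeR, SE 0.24), under the fold threshold, and FeNonAD was at -0.51 against FeCon (adjusted p = 0.16 by edgeR, SE 0.25). Of the 12 leukocyte genes 11 were called higher in MaAAD against MaCon, 10 in FeAAD against FeNonAD and 11 in FeAAD against FeCon. Of all 14431 tested genes, 1325, 980 and 1434 were called higher in these. The part of leukocytes in the change of Ucp2 was not tested. Dio3, the deiodinase that inactivates thyroid hormone, rose by 2.75 in MaAAD against MaCon (SE 0.70, adjusted p = 0.00168, edgeR) and by 2.38 in FeAAD against FeCon (SE 0.63, adjusted p = 0.00187, edgeR), at mean levels of no more than 0.928 CPM in any group. Cox8a, the widely expressed form of the oxidase subunit, was at 399 ± 143 CPM per kb (SD, n = 48) against 172 ± 140 for Cox8b. Cpt1a, the form found in liver and most tissues, was at 26.3 ± 5.71 CPM per kb against 40.5 ± 28.2 for Cpt1b. Of the 16 paralogues 14 were tested, and Ucp3, Cideb, Cidec, Elovl1, Elovl6, Ppargc1b, Cpt1a, Cpt1c, Cox8a, Mecom and Adrb1 were called in none of the 9 comparisons with all libraries. Without MaAAD1, 2 paralogues (Cideb and Ppargc1b) were called lower in MaAAD than in MaCon and 4 (Cidec, Elovl6, Cox8a and Adrb1) lower than in MaNonAD. Of all tested genes 2.89% and 1.5% were then called lower. Dio1 and Kcnk9 were too low to test.

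Of 25 other genes of brown fat, 21 were tested. In MaAAD against MaCon, where 313 of all 14431 tested genes were called lower, 2 of the 21 were, and none were called in the other comparisons. These were Pdk4, a kinase that spares glucose by blocking pyruvate dehydrogenase, at -1.61 (SE 0.40, adjusted p = 0.00113, edgeR), and P2rx5, an ATP-gated channel, at -1.05 (SE 0.16, adjusted p = 1.38e-06, edgeR). The call of P2rx5 was lost by its size alone, at -0.966 to -0.996, without MaCon5, MaAAD3 or MaAAD7, and likewise with library totals (-0.973) and without the libraries with heart RNA (-0.967). P2rx5 was 56.9 to 85.7 CPM in MaCon and 23.5 to 52.0 CPM in MaAAD. Of 16 genes of fatty acid oxidation and 13 of adrenergic lipolysis, 0 were called in any of the 9 comparisons. Without MaAAD1, 10 of 21 brown fat genes and 8 of 16 genes of fatty acid oxidation were called lower in MaAAD than in MaCon, and 7 of 21 and 16 of 16 lower than in MaNonAD. Of the 13 genes of adrenergic lipolysis, 2 and 4 were then called lower, and of all tested genes 2.89% and 1.5%.

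Of 15 adipocyte genes 0 were called in any comparison with all libraries, and without MaAAD1 3 were called lower in MaAAD than in MaCon and 5 lower than in MaNonAD. Of all tested genes 2.89% and 1.5% were then called lower. Of 10 tested white fat genes, Lep, the hormone leptin, was called lower in FeAAD than in FeCon, at -1.33 (SE 0.50, adjusted p = 0.0264, edgeR), a call lost without FeCon5 at -1.14 (adjusted p = 0.0669, edgeR), and at -1.19 to -1.21 without FeAAD5, FeAAD7 or FeAAD9. Mest rose in MaAAD against MaCon at 1.37 (SE 0.31), in FeAAD against FeCon at 1.51 (SE 0.30) and in FeAAD against FeNonAD at 1.32 (SE 0.32), both female changes falling under the fold threshold without FeAAD6, at 0.99 and 0.80. In a fit of FeAAD and FeNonAD alone the change of Mest was 1.33 with an adjusted p of 0.0536 by edgeR. Nnat was higher in MaCon than in FeCon at 1.46 (SE 0.38), and lower in MaAAD than in MaCon at -1.10 (SE 0.42). The latter call was lost, at -0.76 to -1.10, without any 1 of MaCon6, MaCon9, MaCon10, MaAAD2, MaAAD3, MaAAD5 and MaAAD7. It was also lost with library totals (-1.03), with no filter on low counts (-1.08) and without the libraries with heart RNA (-0.65). The beige fat genes that were called, Tnfrsf9 and Ear2, are also expressed in leukocytes. Both were higher in MaAAD than in MaCon, and Tnfrsf9 was also higher in FeAAD than in FeCon at 4.58 (SE 0.83) and than in FeNonAD at 3.24 (SE 0.79), the latter call lost without FeAAD5 at 1.78 and under a replicate block at 1.99. Of the genes of other heat-producing cycles, Gatm, an enzyme of creatine synthesis, was higher in MaAAD than in MaCon at 1.58 (SE 0.23) and in FeAAD than in FeCon at 2.36 (SE 0.23). Ckmt2, a mitochondrial creatine kinase that is also abundant in heart, was lower in FeAAD than in FeCon at -3.36 (SE 1.24), and without FeCon10, the library with the most heart RNA, it was at -0.70 and not called, nor was it under a replicate block (-1.03) or by DESeq2 (-0.62).

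Heart and skeletal muscle share Cpt1b and Cox8b with brown fat, so their markers were set beside these members. The summed level of 20 heart genes ran from 55.0 CPM in MaAAD1 to 940 CPM in FeCon10. In FeAAD against FeCon 401 of all 14431 tested genes were called lower, and 9 of the 19 tested heart genes. Of these 9, 4 remained without FeCon10 and 4 under a replicate block. Among them Myl3 was at -3.64 (SE 1.28), Myl2 at -3.01 (SE 1.25) and Myh7 at -2.92 (SE 0.60). Without FeCon10 Myl3 was at -0.28 and Myl2 at 0.31, neither called. Under a replicate block Myl3 was at -0.71 and Myl2 at -0.04, neither called. The call of Myl2 was also lost, at -2.84 to -3.08, without any 1 of 7 FeAAD libraries (1, 2 and 5 to 9), with library totals (-2.99) and with no filter on low counts (-3.02). MaAAD1, with the most Cpt1b and Cox8b, had the least heart RNA of all 48 libraries. Without the 3 libraries with Myh6 above 50 CPM, the log2 fold change in MaAAD against MaCon was -0.57 for Cpt1b, from -0.79, and -0.30 for Cox8b, from -0.54, and neither was called. The part of heart RNA in these members was not tested. The summed level of 14 skeletal muscle genes was 22.5 to 164 CPM over all groups, and of 11 tested, Mybpc2 was lower in MaAAD than in MaCon at -1.80 (SE 0.21), in MaNonAD than in MaCon at -1.27 (SE 0.25; not called without MaNonAD1, at -1.11) and in FeAAD than in FeCon at -1.50 (SE 0.19). Acta1 was lower in FeAAD than in FeCon at -1.62 (SE 0.64), a call lost without FeCon10 at -0.79 and under a replicate block at -1.18. It was also lost, at -1.47 to -1.57, without any 1 of FeAAD1, FeAAD4, FeAAD5, FeAAD8 and FeAAD9. Tnnt3 was called lower in FeNonAD than in FeCon. Casq1 was higher in MaCon than in FeCon at 1.04 (SE 0.23), and under the fold threshold without MaCon5, at 0.95.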

How the data were processed

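RNA of 48 thoracic aortas, 1 library per mouse, was sequenced by the authors from strand-specific mRNA libraries. The authors deposited expected counts per gene, not scaled to library size, from Bowtie2 and RSEM 1.3.1 on GRCm39 per the labels. Of the values 4.99% were not whole, none of them in the 10 members, and all were rounded. Groups came from the labels.

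Counts were fitted with edgeR 4.0.16 in R 4.3.3 (filterByExpr, which kept 14431 genes, TMM, quasi-likelihood test with robust estimation, a mean for each of 6 groups). A gene was called where its p, adjusted by Benjamini-Hochberg over all tested genes, was under 0.05 and its log2 fold change was 1 or more in size. The fit was also run on simulated data, and the outcome is not reported here. DESeq2 1.42.0 was an alternative. The p-values set differences between groups against the spread between mice, each taken as independent. The paper housed each group in several cages, with the sexes apart, and the labels do not name the cage. Cage was therefore not in the fit and cannot be told apart from treatment (water or BAPN) or sex. Likeness to Ucp1 used deviations of log2(CPM + 1) from group means. Ratios within a library used log2 counts with 0.5 added. Levels per kb used the longest coding transcript in GENCODE M21 of GRCm38, matched by symbol. Python 3.11.15 with scipy 1.17.1 was used for the rest.

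The members and lists were chosen with earlier results of these data known. Named genes were the members, their paralogues, the 10 most like Ucp1, the 3 largest called changes of each list, and defining markers, of which some are not reported here. Leaving out libraries of groups other than MaNonAD, leaving out libraries with heart RNA, the ratios and the permutation p of relations to Ucp1 were added after seeing the data. Genes least like Ucp1 were named after their values were seen. Counts of 3 or fewer were taken as near detection, and depth covers counting error only.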

Additional observations from a re-analysis of the deposited data

Results flagged for a closer look

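Of 60 groups of libraries (10 genes in 6 groups), 12 had a highest library that lay far from the others by Dixon's criterion at 95%. The criterion was applied to CPM and not on the log2 scale. It flags about 1 in 20 groups only where values are normally distributed, and these levels were skewed to high values. The count of 12 is therefore not set against a rate of chance. In MaAAD1 this was so for 8 genes: Ucp1 at 1364 CPM (next library 205), Cidea at 864 CPM (166), Elovl3 at 8.68 CPM (1.29), Ppargc1a at 8.38 CPM (4.84), Cpt1b at 325 CPM (77.0), Cox8b at 269 CPM (35.6), Adrb3 at 65.6 CPM (33.2) and Kcnk3 at 150 CPM (45.8). The 8 share that 1 library and are not separate observations. In FeCon8 it was so for Ucp1 at 1040 CPM (next library 537), Elovl3 at 14.8 CPM (8.04) and Cpt1b at 224 CPM (132), and in FeAAD8 for Elovl3 at 37.0 CPM (15.2). Summed adipocyte genes were also the highest of their group in MaAAD1 (20260 CPM) and FeCon8 (9801 CPM).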

How the results depend on the processing

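The count of members called was 0 in all 12 comparisons, moved under 6 alternatives and stayed at 0 under 342. Without MaAAD1 it was 5 in MaAAD against MaCon and 6 in MaAAD against MaNonAD, and without FeCon8 it was 1 (Elovl3) in FeAAD against FeCon. Over all libraries left out in turn the ranges were thus 0 to 5, 0 to 6 and 0 to 1. A fit of the compared groups only gave 1 (Elovl3) in MaNonAD against MaCon. Adjusted p alone gave 1 in FeAAD against FeCon (Prdm16) and 1 in MaCon against FeCon (Dio2). The ratios past the threshold were 0 with Ucp1 and 8 with Cidea as the denominator. The count of other listed genes called was 2 in MaNonAD against MaCon (1 to 3 with 1 library left out), 29 in MaAAD against MaCon (26 to 51), 2 in MaAAD against MaNonAD (0 to 44), 3 in FeNonAD against FeCon (2 to 6), 34 in FeAAD against FeCon (27 to 40), 14 in FeAAD against FeNonAD (13 to 19), 3 in MaCon against FeCon (2 to 8), and 0 in MaAAD against FeAAD (0 to 1) and in MaNonAD against FeNonAD (0 to 0). The 51 and 44 were without MaAAD1. Adjusted p alone gave 47 in MaAAD against MaCon, 13 in FeNonAD against FeCon, 55 in FeAAD against FeCon, 31 in FeAAD against FeNonAD and 10 in MaCon against FeCon. In MaAAD against MaNonAD it was 5 with DESeq2 size factors or library totals, 10 with DESeq2, and 0 with no filter on low counts, with the compared groups only, or without the libraries with heart RNA. In FeNonAD against FeCon it was 5 with library totals and 8 with DESeq2, and in MaAAD against FeAAD 1 without the libraries with heart RNA and 1 with DESeq2. Of the fold changes, 5 reversed: Elovl3 in MaAAD against MaCon without MaAAD1 (-0.93; range -0.93 to 0.76), Cidea in MaNonAD against MaCon without MaNonAD2 (-0.064; range -0.064 to 0.54), Ucp1 in MaCon against FeCon without MaCon2 (-0.0446; range -0.0446 to 0.49), and Myl2 in FeAAD against FeCon without FeCon10 (0.305; range -3.37 to 0.305) and without the libraries with heart RNA (0.307). The cause was not tested. Replicate numbers did not pair the libraries: same-numbered libraries had mean correlations of their deviations between -0.0661 and 0.16, and in no comparison were all pairs above 0.1. With the number as a replicate block the count of members called stayed at 0 in all 12 comparisons, and that of other listed genes in MaAAD against MaNonAD was 0. DESeq2, its size factors, library totals, no filter on low counts and no robust estimation also gave 0 members in each. Elovl3 rests on few reads, with 1 count in MaAAD3.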
